A study of Mus musculus with 9 samples.

Results

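The genes of the matrix metalloproteases and their relatives were examined in mouse embryonic fibroblasts (MEFs) by RNA-Seq. Members were all genes whose listed symbol is Mmp, Adam, Adamts, Adamtsl or Timp followed by a number and at most one letter a or b. This rule took 84 of the 24341 listed genes, namely 23 Mmp, 33 Adam, 19 Adamts, 5 Adamtsl and 4 Timp genes. It used no measured value. Genotypes were compared in 9 samples, with 3 labelled WT, 3 labelled Atm-/- and 3 labelled Sirt6-/-.

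Matrix metalloproteases (MMPs) are zinc enzymes that cut collagens, fibronectin and other parts of the extracellular matrix, and fibroblasts are a main source of them in connective tissue. ADAMs are related enzymes that sit in the cell membrane and release the outer parts of growth factors, cytokines and receptors, and several of them lack a catalytic site and act in adhesion. ADAMTS proteases are secreted and cut proteoglycans or procollagens, ADAMTS-like proteins carry the binding parts without the protease, and the tissue inhibitors of metalloproteases (TIMPs) block the active sites of many of these enzymes. Most of the enzymes are made as inactive precursors and need a second protease, often furin, plasmin or another MMP, to become active, so an mRNA level is not an enzyme activity.

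All 9 samples were MEFs of the strain C57BL/6 grown in DMEM with serum, with no further treatment named. ATM is a kinase that responds to DNA breaks, and SIRT6 is a deacetylase of histones. Besides wild-type and Sirt6-/- mice, the protocol lists mice lacking P53 and mice lacking both Atm and P53 as donors, with no link to single samples, and the study's methods name primary MEFs as well as immortalized MEFs lacking Atm and p53, without saying which were sequenced. Trp53, the gene of p53, had 806, 946 and 928 reads in Atm-/- against 7108, 7102 and 6563 in WT and 9081, 9127 and 9218 in Sirt6-/-. An effect of Atm and one of p53 therefore cannot be told apart in these samples. Nor can genotype be told apart from the line, passage or laboratory of origin, since the labels give none of these and the methods name a different laboratory for each of the 2 immortalized knockout lines. The labels also do not say whether the 3 samples of a genotype came from separate embryos or cultures, so the p-values measure only the spread between these samples.

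Sirt6 itself had 4, 5 and 7 reads in Sirt6-/-, against 487, 402 and 472 in WT. Atm had 3768, 3564 and 3443 reads in the samples labelled Atm-/-, more than the 1536, 1617 and 1627 in WT, and a count over a whole gene does not show whether a mutated exon was read, so it does not check that label. Samples held 32187040 to 33837949 counted reads, so that 3 reads correspond to 0.0887 to 0.0932 CPM (reads scaled to the library total). WT replicate 2 stood somewhat apart, with a chi-square per gene of 15.6 and 14.4 against the other WT samples where all other pairs of 1 genotype had 5.11 to 6.66. Of 10 fibroblast markers, Lum had fewer than 20 reads in every sample, and the summed RPKM (reads scaled to transcript length and to the read total) of the list was 6182 to 6725 in WT, 2684 to 2742 in Atm-/- and 4701 to 4728 in Sirt6-/-. By the test given below, 8 of 9 tested markers were lower in Atm-/- than WT and 1 was higher. Of all tested genes 33.6% were lower and 34.7% higher. In Sirt6-/- against WT, 6 markers were lower and 3 higher, beside 37.4% and 39.2% of all. The median log2 fold change of the markers was -1.82 in Atm-/- and -0.95 in Sirt6-/-, and 0.02 over all genes in both. Mean RPKM in WT, Atm-/- and Sirt6-/- was 1739, 329 and 507 for Col1a1, 867, 180 and 1520 for Col1a2, 1048, 429 and 455 for Fn1 and 2125, 1629 and 1534 for Vim. Thy1 had log2 fold changes of 1.83 in Atm-/- and -5.69 in Sirt6-/- (-6.92 without Sirt6-/- replicate 2). Of 8 leukocyte markers, 7 were among the listed genes. Ptprc, Itgam, Tyrobp and Fcer1g had fewer than 20 reads in every sample, and the summed RPKM of the 7 was 5.34 to 8.77. In bulk samples, fewer cells of a type and less RNA per cell cannot be told apart, and the part of cell make-up in the results that follow was not tested.

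Of the 84 members, 15 had 0 reads in all 9 samples, 18 had 1 to 19 reads in their highest sample and 51 reached at least 20. The genes at 0 included Timp4, Mmp7, Mmp20 and 11 of 21 ADAM genes outside the somatic group, most of which are known from the testis. A gene was tested where its counts passed a filter on low values, which 53 members did in at least 1 comparison and 47 in all 3. In WT the member with the highest level was Timp3 at 849 ± 32.6 RPKM (mean ± SD, n = 3), followed by Timp1 at 175 ± 51.7, Adam9 at 173 ± 6.55, Timp2 at 129 ± 1.65, Mmp14 at 113 ± 6.94, Adam10 at 79.5 ± 3.16 and Adamts5 at 66.9 ± 9.30 RPKM. The neighbours Timp1 and Adam9 in this order did not differ beyond their spread. In both knockouts the leading member was Timp2, at 258 ± 5.17 RPKM in Atm-/- and 451 ± 17.8 RPKM in Sirt6-/-.

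**Figure D1:**
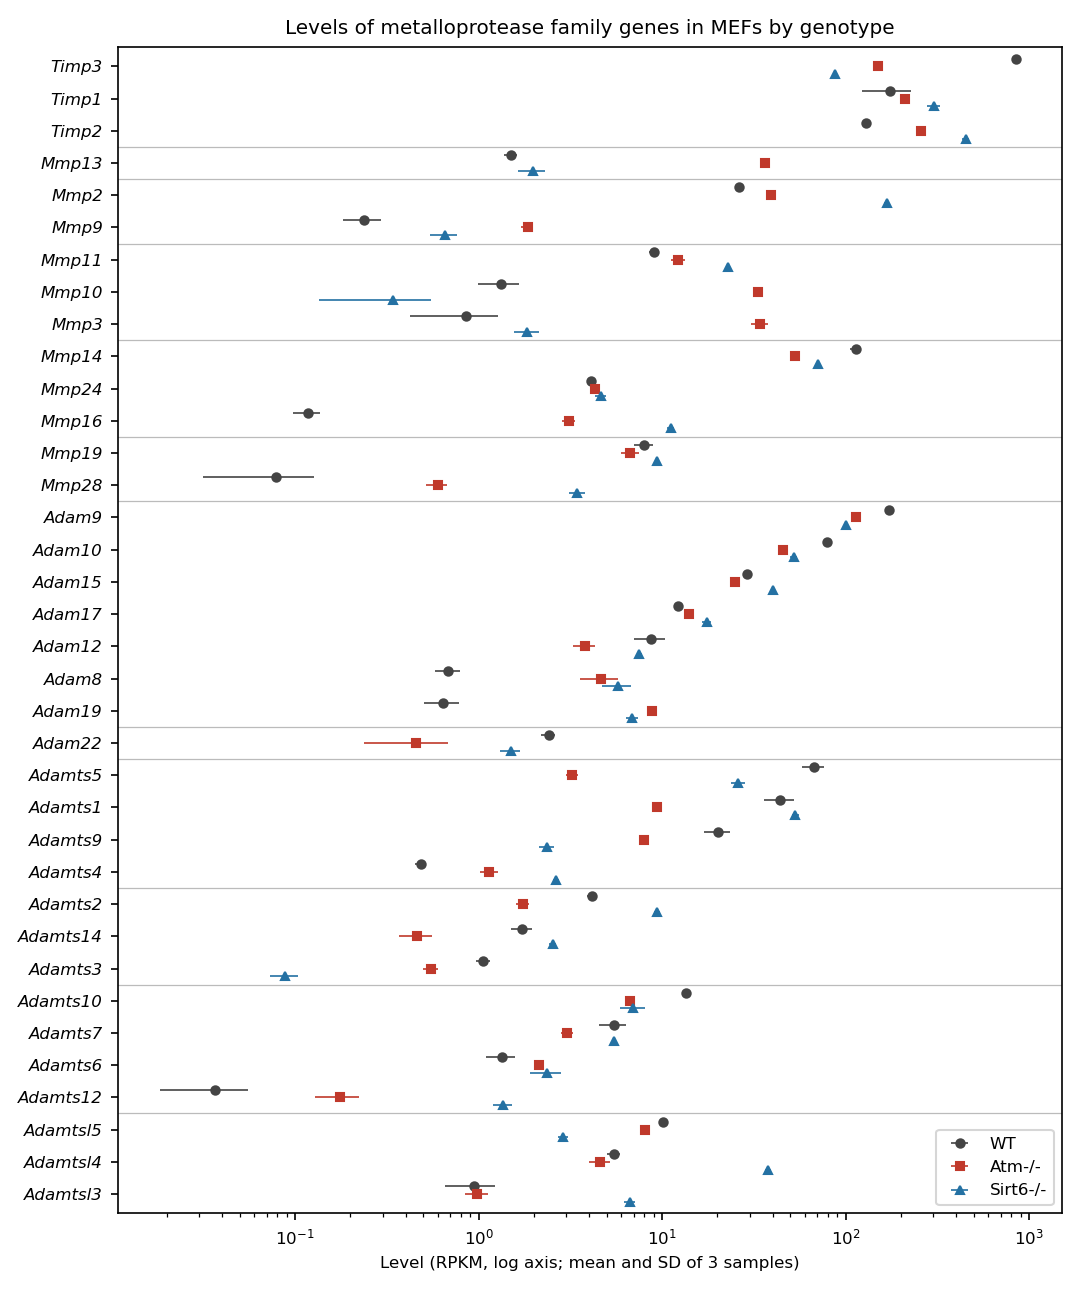
Level in RPKM on a log axis (mean, with the SD of 3 samples as the bar) of the members other than the mostly testis-expressed ADAMs that reached at least 200 reads in 1 sample, in WT (grey circles), Atm-/- (red squares) and Sirt6-/- (blue triangles). Grey lines separate the roles. Timp3 falls from 849 RPKM in WT to 150 and 87.0, and Mmp3, Mmp10 and Mmp13 stand between 33.2 and 36.5 RPKM in Atm-/- against 0.852, 1.33 and 1.496 in WT.

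In Atm-/- against WT, 51 members were tested. With edgeR's quasi-likelihood test and a Benjamini-Hochberg adjusted p under 0.05 over all tested genes, 16 were higher in Atm-/-, where 34.7% of all tested genes were higher, and 25 were lower, where 33.6% of all were. In either direction 80.4% of the tested members and 68.4% of all tested genes differed. By a second rule that also asks for at least a 2-fold change, 12 members were higher against 12.6% of all genes and 18 were lower against 9.85% of all. Together these are 58.8% of the tested members beside 22.5% of all tested genes. The median log2 fold change was -0.21 over the members and 0.02 over all genes. Without WT replicate 2, 17 members were higher and 25 lower.

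In Sirt6-/- against WT, 51 members were tested, of which 22 were higher, beside 39.2% of all tested genes, and 18 were lower, beside 37.4%. The 78.4% of members that differed were close to the 76.6% of all genes. At 2-fold, 16 members were higher, beside 17.5% of all genes, and 13 were lower, beside 11.8%, which together were 56.9% of the members and 29.3% of all genes. The median log2 fold change was 0.31 over the members and 0.02 over all. Without WT replicate 2, 24 members were higher and 18 lower. Both comparisons use the same 3 WT samples and are not independent.

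The family as a whole took a smaller share of all reads in the knockouts, and Timp3 was the main part of the difference. Members together held 0.743 ± 0.0238% of counted reads in WT, 0.355 ± 0.00477% in Atm-/- and 0.503 ± 0.00505% in Sirt6-/- (mean ± SD, n = 3 each). Timp3 alone was 53.5% of the members' reads in WT, 19.7% in Atm-/- and 8.13% in Sirt6-/-. Without it the shares of all reads were 0.345 ± 0.00930%, 0.285 ± 0.00291% and 0.462 ± 0.00448%. By share of reads the rest of the family was thus lowest in Atm-/- and highest in Sirt6-/-. On the length-corrected scale this order did not hold, since the summed RPKM without Timp3 was 957 ± 28.2 in WT, 963 ± 20.5 in Atm-/- and 1442 ± 25.6 in Sirt6-/-. The summed RPKM of the MMPs was 168 ± 6.64 in WT, 226 ± 6.82 in Atm-/- and 295 ± 4.999 in Sirt6-/-, while that of the ADAMTS genes was 159 ± 21.3, 37.3 ± 0.485 and 114 ± 4.59.

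The inhibitors changed in opposite ways. Timp3 encodes the TIMP that binds to the matrix and also inhibits several ADAMs and ADAMTS enzymes (chromosome 10, 86300372 to 86349506, GENCODE M21 on GRCm38). It had 139244, 126585 and 133120 reads in WT, 22890, 24088 and 22106 in Atm-/- and 13282, 13306 and 13343 in Sirt6-/-. No sample of 1 genotype reached into the range of another. The log2 fold change was -2.67 in Atm-/- (standard error 0.04, adjusted p = 2.24e-15, 6.35-fold lower) and -3.37 in Sirt6-/- (0.05, 1.16e-16, 10.4-fold lower). Part of the Timp3 exons, 1733 bases, lies opposite Syn3 exons, and the sources used here do not state whether reads were counted by strand. Syn3 was listed at 38 to 108 reads.

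Timp2, which also takes part in the activation of proMMP2 by MT1-MMP at the cell surface, went the other way. It had 15765, 15431 and 15835 reads in WT, 30120, 31512 and 30561 in Atm-/- and 52250, 54986 and 52806 in Sirt6-/-. The groups were separate, in the order WT, Atm-/-, Sirt6-/-. Its log2 fold change was 0.83 in Atm-/- (standard error 0.04, adjusted p = 1.10e-10) and 1.71 in Sirt6-/- (0.04, 6.48e-14).

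Timp1, the inducible TIMP, had 4893, 6835 and 3865 reads in WT, 5726, 6498 and 6155 in Atm-/- and 7842, 8992 and 9436 in Sirt6-/-. The WT samples spread widely and enclosed the Atm-/- samples, whereas every Sirt6-/- sample was above both. The rise in Sirt6-/- had a log2 fold change of 0.70 (standard error 0.14, adjusted p = 0.000436). Atm-/- and WT gave 0.10 (0.14, 0.546). That value depended on single samples, being 0.35 with an adjusted p of 0.000105 without WT replicate 2 and -0.07 without WT replicate 3. Timp4 had 0 reads in all samples, which allows up to 3 reads, or 0.0932 CPM in the shallowest sample.

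**Figure D2:**
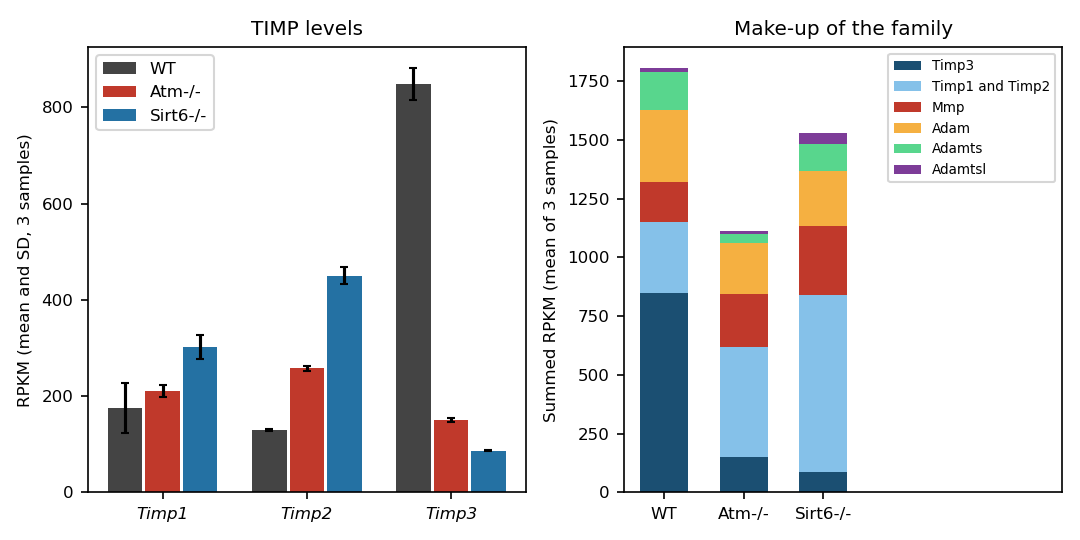
Left, RPKM of Timp1, Timp2 and Timp3 by genotype (bars are means and error bars the SD of 3 samples). Right, the summed RPKM of the family divided by gene group (bars are means of 3 samples). Timp3 takes most of the WT bar's lower part, 849 of 1806 RPKM, and 87.0 of 1529 in Sirt6-/-, where Timp1 and Timp2 fill most of the TIMP part.

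Among the largest rises in Atm-/- were those of the stromelysins and the main collagenase, which lie together on chromosome 9. Stromelysin 1 (Mmp3) and stromelysin 2 (Mmp10) cut proteoglycans, fibronectin and several collagens and can activate other proMMPs, and Mmp13 is the main enzyme for fibrillar collagen in the mouse. The cluster holds 10 Mmp genes between bases 7272514 and 7699585 (GENCODE M21, GRCm38), in the order Mmp13, Mmp12, Mmp1b, Mmp3, Mmp1a, Mmp10, Mmp8, Mmp27, Mmp20 and Mmp7. Genes of this cluster are textbook targets of the AP-1 transcription factors (Fos and Jun proteins). The stretches of 120 bases before the RefSeq transcription start (GRCm38.p6) are shown for the 3 genes that rose in Atm-/- and for Mmp8 and Mmp27, which fell there, so that the AP-1 heptamer can be seen where it is present. They are written 5′ to 3′, all on the plus strand, with the heptamer TGACTCA, or TGAGTCA which is the same site on the other strand, in capitals.
Mmp13, chr9:7272394-7272513: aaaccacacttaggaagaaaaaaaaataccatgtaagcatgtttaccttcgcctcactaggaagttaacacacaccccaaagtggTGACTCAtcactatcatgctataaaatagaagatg
Mmp3, chr9:7445702-7445821: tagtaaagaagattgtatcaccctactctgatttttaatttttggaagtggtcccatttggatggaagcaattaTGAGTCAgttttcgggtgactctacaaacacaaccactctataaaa
Mmp10, chr9:7502222-7502341: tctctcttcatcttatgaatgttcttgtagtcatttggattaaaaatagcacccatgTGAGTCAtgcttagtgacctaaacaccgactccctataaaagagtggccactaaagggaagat
Mmp8, chr9:7558309-7558428: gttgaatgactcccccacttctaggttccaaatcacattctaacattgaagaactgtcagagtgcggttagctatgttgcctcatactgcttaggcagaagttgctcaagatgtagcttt
Mmp27, chr9:7571276-7571395: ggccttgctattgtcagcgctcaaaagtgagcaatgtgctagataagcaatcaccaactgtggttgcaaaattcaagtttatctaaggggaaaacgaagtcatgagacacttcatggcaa

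The heptamer began at position -35 in Mmp13, -46 in Mmp3 and -63 in Mmp10, where -1 is the last base before the start. It was absent from the shown stretches of Mmp8 and Mmp27. In windows of 300 bases, from 250 before to 50 after the start, 7 of the 10 cluster genes held it on either strand (Mmp13, Mmp12, Mmp1b, Mmp3, Mmp1a, Mmp10 and Mmp7), and Mmp8, Mmp27 and Mmp20 did not. Counted by gene, 5.95% of 27025 genes had it in a window, and of the 53 members with a window 10 did (18.9%). Of these 10, 7 were the neighbouring cluster genes just named. Outside the cluster only Adam19, Adam1b and Adam29 had it, so the share of the members comes mainly from this cluster. A match of letters is not evidence that a factor binds there.

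Mmp3 had 51, 77 and 26 reads in WT, 1863, 2308 and 1904 in Atm-/- and 91, 124 and 110 in Sirt6-/-. Every Atm-/- sample was far above every other sample, and the Sirt6-/- samples lay just above WT. The log2 fold change was 5.16 in Atm-/- (standard error 0.19, adjusted p = 9.72e-12) and 1.02 in Sirt6-/- (0.32, 0.00939).

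Mmp10 had 97, 78 and 57 reads in WT, 1833, 2017 and 1825 in Atm-/- and 26, 26 and 6 in Sirt6-/-. It was thus high in Atm-/- and below WT in all Sirt6-/- samples. The log2 fold changes were 4.47 (standard error 0.13, adjusted p = 4.50e-13) and -2.04 (0.43, 0.000517).

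Mmp13 had 140, 141 and 121 reads in WT, 3122, 3369 and 3146 in Atm-/- and 152, 204 and 161 in Sirt6-/-. In Atm-/- the log2 fold change was 4.44 (standard error 0.08, adjusted p = 7.77e-15, 21.8-fold higher). In Sirt6-/- all 3 samples had more reads than the WT samples, but the difference did not pass the test (0.31, 0.18, 0.127).

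The next genes along the chromosome showed lower values in both knockouts. Mmp8, the neutrophil collagenase, had 103, 53 and 127 reads in WT, 23, 24 and 19 in Atm-/- and 2, 2 and 0 in Sirt6-/-, with log2 fold changes of -2.23 (standard error 0.35, adjusted p = 5.00e-05) and -6.07 (0.60, 3.38e-07). Mmp27 had 37, 27 and 43 reads in WT, 1, 10 and 1 in Atm-/- and 0, 0 and 0 in Sirt6-/-. Its log2 fold change in Atm-/- was -3.25 (0.61, 0.000271), or -5.10 without Atm-/- replicate 2, and in Sirt6-/- it was at least 37.0-fold lower when 3 reads over the group stand for 0.

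The other cluster genes were at few reads. Mmp12, the macrophage elastase, had 34 to 54 reads in WT, 34 to 58 in Atm-/- and 26 to 48 in Sirt6-/-, and did not pass the test in any comparison. The collagenase Mmp1b had 9, 6 and 15 reads in Atm-/-, 0, 0 and 2 in WT and 0 in Sirt6-/-, a ratio over WT of 13.6 with a 95% interval of 3.46 to 118 that covers counting error only. Mmp1a had 7 reads in 1 Atm-/- sample and 0 in all others. Mmp20 and Mmp7 had 0 reads throughout. Mmp12 and Mmp7 thus carry the heptamer without higher reads in Atm-/-.

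**Figure D3:**
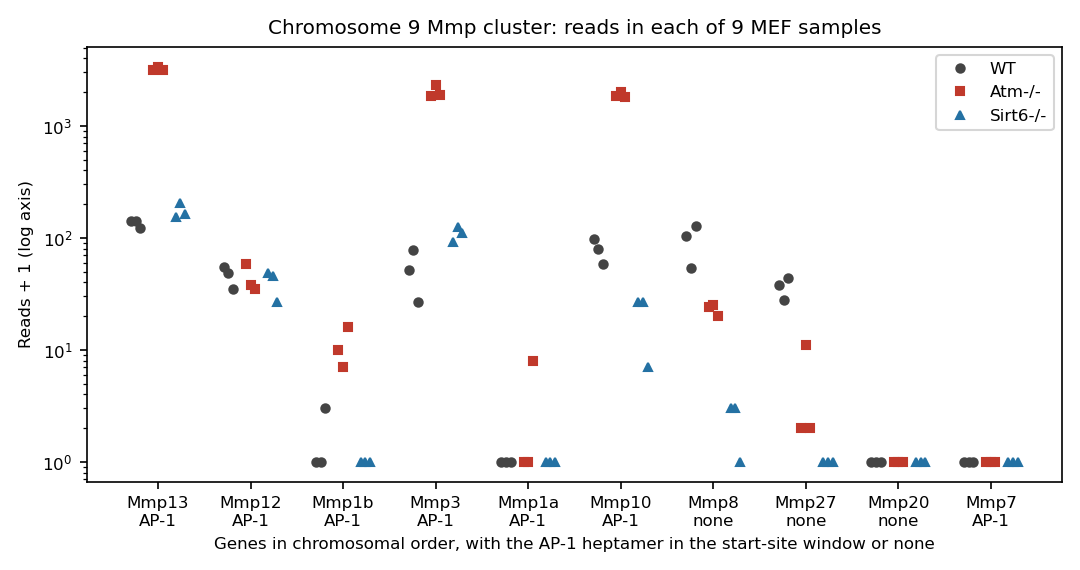
Reads plus 1 on a log axis in each of the 9 samples for the 10 Mmp genes of the chromosome 9 cluster in chromosomal order. The second line of each label says whether the AP-1 heptamer is in a start-site window. The Atm-/- samples (red squares) of Mmp13, Mmp3 and Mmp10 stand above 1800 reads, with every other sample of these genes at 204 or fewer, and for Mmp8 and Mmp27 the WT samples (grey circles) are the highest.

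The gelatinases, which cut denatured collagen and basement membrane, rose in both knockouts to different degrees. Mmp2 had 2717, 2610 and 2643 reads in WT, 3946, 3864 and 3877 in Atm-/- and 16590, 15928 and 17417 in Sirt6-/-. All groups were separate, and Mmp2 became the member with the third highest level in Sirt6-/-, at 167 ± 4.56 RPKM. The log2 fold change was 0.42 in Atm-/- (standard error 0.05, adjusted p = 2.48e-06) and 2.59 in Sirt6-/- (0.05, 1.27e-15). Mmp9 stayed low, with 32, 20 and 24 reads in WT, 189, 212 and 178 in Atm-/- and 66, 79 and 58 in Sirt6-/-. Its order was reversed, Atm-/- being highest, with log2 fold changes of 2.79 (0.23, 6.71e-08) and 1.36 (0.32, 0.00123). Mmp11 (stromelysin 3), which has little activity on matrix, rose by 0.28 and 1.26 on the log2 scale in Atm-/- and Sirt6-/-.

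Of the 6 membrane-type MMPs, 5 were tested. Mmp14, the gene of MT1-MMP, which activates proMMP2 and cuts collagen at the cell surface, was the most abundant MMP in WT. It had 10527, 9138 and 9867 reads in WT, 4632, 4553 and 4356 in Atm-/- and 6016, 5781 and 6188 in Sirt6-/-. WT was above both knockouts without overlap, with log2 fold changes of -1.26 (standard error 0.05, adjusted p = 2.24e-11) and -0.77 (0.05, 3.41e-09). Mmp16 (MT3-MMP) was almost silent in WT, at 18, 21 and 15 reads, and had 493, 428 and 480 in Atm-/- and 1651, 1702 and 1636 in Sirt6-/-. These were log2 fold changes of 4.55 (0.19, 2.58e-11) and 6.47 (0.12, 2.76e-15), the latter being 88.5-fold. Mmp17 (MT4-MMP) had log2 fold changes of -2.43 and -2.81, falling from 118 to 184 reads in WT to 26 to 41 in Atm-/- and 16 to 27 in Sirt6-/-. Mmp24 had 562 to 722 reads in all samples and passed the test in no comparison. Mmp15 reached at most 28 reads. Its call in Atm-/-, a log2 fold change of -1.95 with an adjusted p of 0.0191, was lost without WT replicate 1, Atm-/- replicate 1 or Atm-/- replicate 2 (-1.64, -1.60 and -1.48), and it was -3.41 without Atm-/- replicate 3.

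Mmp28 (epilysin) had 7, 2 and 9 reads in WT, 45, 51 and 38 in Atm-/- and 249, 279 and 239 in Sirt6-/-. Its log2 fold changes were 2.73 (standard error 0.47, adjusted p = 0.000119) and 5.33 (0.31, 6.83e-10). A part of its exons, 466 bases, lies opposite exons of 1700020L24Rik, which had 3, 0 and 4 reads in WT, 17, 10 and 12 in Atm-/- and 68, 81 and 60 in Sirt6-/-. Without strand the reads of this pair cannot be told apart there. Together with Mmp2 and Mmp16 it was higher in Sirt6-/- than in Atm-/-, in contrast to Mmp3, Mmp9, Mmp10 and Mmp13.

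Among the ADAMTS proteases that cut aggrecan, versican and related proteoglycans, Adamts5 and Adamts1 lost most in Atm-/-. Adamts5, the main aggrecanase of mouse cartilage, had 19803, 15112 and 19524 reads in WT, 934, 833 and 820 in Atm-/- and 7387, 6144 and 7101 in Sirt6-/-. No groups overlapped. The log2 fold change was -4.53 in Atm-/- (standard error 0.10, adjusted p = 2.38e-14, 23.1-fold lower) and -1.45 in Sirt6-/- (0.09, 1.06e-09).

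Adamts1 lies beside Adamts5 on chromosome 16 (85793827 to 85803113, with Adamts5 at 85856173 to 85901828). It had 7991, 5644 and 8019 reads in WT, 1549, 1518 and 1429 in Atm-/- and 8795, 8346 and 8315 in Sirt6-/-. The Atm-/- samples were far below the others. The log2 fold change was -2.40 in Atm-/- (standard error 0.10, adjusted p = 4.50e-11). In Sirt6-/- it was 0.18 (0.10, 0.0985). It passed the test without WT replicate 1 (0.24), without WT replicate 3 (0.25) or with scaling by library totals (0.27).

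Adamts9, which cuts versican and is found in many embryonic tissues, fell in both and more in Sirt6-/-. It had 4215, 3326 and 4633 reads in WT, 1603, 1618 and 1549 in Atm-/- and 414, 493 and 489 in Sirt6-/-, again without overlap, for log2 fold changes of -1.49 (standard error 0.09, adjusted p = 2.16e-09) and -3.18 (0.11, 1.78e-12). Adamts4 and Adamts20, both at low levels, rose. Adamts4, another aggrecanase, went from 56 to 64 reads in WT to 121 to 156 in Atm-/- and 312 to 327 in Sirt6-/-, for log2 fold changes of 1.08 and 2.37. Adamts20 had 9 to 16, 28 to 38 and 80 to 100 reads. Its rise of 2.82 in Sirt6-/- passed the test in all fits without 1 sample, whereas that of 1.22 in Atm-/- had an adjusted p of 0.0135 and was lost without WT replicate 3 (1.03) or Atm-/- replicate 2 (1.12).

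The 3 procollagen N-proteinases, which remove the amino-terminal propeptide of fibrillar collagens, were all lower in Atm-/-. Adamts2 had 960, 1071 and 1009 reads in WT, 457, 396 and 400 in Atm-/- and 2246, 2119 and 2330 in Sirt6-/-. It was lower than WT in one knockout and higher in the other, without overlap, with log2 fold changes of -1.42 (standard error 0.09, adjusted p = 4.26e-09) and 1.08 (0.07, 1.34e-09). Adamts14 had 338, 254 and 311 reads in WT, 66, 75 and 95 in Atm-/- and 439, 404 and 447 in Sirt6-/-. It had the same pattern, with values of -2.07 (0.18, 1.38e-07) and 0.46 (0.12, 0.00322). Adamts3 had 270, 246 and 292 reads in WT, 141, 124 and 145 in Atm-/- and 20, 19 and 27 in Sirt6-/-. It fell in both, with log2 fold changes of -1.11 and -3.66 (adjusted p = 1.13e-05 and 6.73e-10). Their substrate genes moved too, Col1a1 with log2 fold changes of -2.57 and -1.87 and Col1a2 with -2.43 and 0.72.

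Other ADAMTS genes were less abundant. Adamts12 rose from 6, 5 and 12 reads in WT to 27, 47 and 34 in Atm-/- and 266, 246 and 321 in Sirt6-/-, for log2 fold changes of 2.08 (standard error 0.46, adjusted p = 0.00106) and 5.10 (0.28, 3.78e-10). Adamts10, which binds fibrillin, fell in both, with log2 fold changes of -1.17 and -1.04. Adamts16 had 14, 19 and 17 reads in WT and 0, 2 and 0 in Atm-/-, a ratio of 27.5 with a 95% counting interval of 7.22 to 233.

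ADAMTS-like proteins bind to fibrillin microfibrils or the matrix without cutting it. The tested genes with an Adamtsl symbol differed more from WT in Sirt6-/- than in Atm-/-. Thsd4, an ADAMTS-like gene outside the naming rule, did not follow this and is given below. Adamtsl4 had 813, 680 and 721 reads in WT, 632, 683 and 510 in Atm-/- and 4794, 5102 and 5070 in Sirt6-/-. In reads the WT and Atm-/- samples overlapped, after normalization they did not, and the Sirt6-/- samples stood well above both. The log2 fold change was 2.70 in Sirt6-/- (standard error 0.07, adjusted p = 3.35e-14) and -0.42 in Atm-/- (0.11, 0.00285).

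Adamtsl3 had 171, 304 and 212 reads in WT, 198, 247 and 259 in Atm-/- and 1454, 1612 and 1698 in Sirt6-/-, a log2 fold change of 2.74 in Sirt6-/- (standard error 0.15, adjusted p = 3.21e-10). In Atm-/- it overlapped WT, with -0.10 (0.20, 0.660). Adamtsl5 moved in the other direction, from 1179 to 1227 reads in WT to 924 to 962 in Atm-/- and 313 to 365 in Sirt6-/-, and its log2 fold changes were -0.49 and -1.90. Adamtsl1, at 40 to 60 reads in WT, had log2 fold changes of -1.62 and -2.03, both past the test.

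Among the sheddases of the ADAM group, Adam10, the main sheddase of Notch and N-cadherin, had 12474, 11593 and 12570 reads in WT, 7150, 7130 and 6463 in Atm-/- and 7972, 7911 and 7616 in Sirt6-/-. Both knockouts were below WT, with log2 fold changes of -0.96 (standard error 0.05, adjusted p = 2.01e-10) and -0.69 (0.05, 5.50e-09). Adam17, which releases TNF and most ligands of the EGF receptor, had 1915, 1713 and 1888 reads in WT, 2129, 2032 and 2039 in Atm-/- and 2479, 2699 and 2528 in Sirt6-/-. It rose in Sirt6-/- by 0.43 (0.06, 1.77e-05), while in Atm-/- the log2 fold change was 0.03 (0.06, 0.652) after TMM normalization and 0.20 (adjusted p = 0.00953) with library totals. Adam9 fell in both (-0.78 and -0.87), and Adam15 had values of -0.38 and 0.38, both past the test. Adam12, known from muscle and growing connective tissue, had 1967, 2706 and 2003 reads in WT, 1061, 818 and 991 in Atm-/- and 1891, 1903 and 1872 in Sirt6-/-. Its log2 fold change was -1.35 in Atm-/- (0.12, 1.90e-07) and -0.29 in Sirt6-/- (0.10, 0.0170), where the call was lost with library totals (-0.20). Adam33, known from airway smooth muscle and fibroblasts, had 110, 30 and 100 reads in WT, with WT replicate 2 the lowest, 1, 0 and 0 in Atm-/- and 14, 17 and 2 in Sirt6-/-. The ratio of WT to Atm-/- was 264 with a 95% counting interval of 46.9 to 10467, and the log2 fold change in Sirt6-/- was -2.89 (0.57, 0.000312).

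Adam19 and Adam8 had the largest rises among the ADAMs tested against WT. Adam19, which is needed in heart development and can cut neuregulin, had 116, 171 and 126 reads in WT, 1803, 1996 and 1768 in Atm-/- and 1506, 1305 and 1504 in Sirt6-/-. Both knockouts were far above WT and close to each other, with log2 fold changes of 3.61 (standard error 0.12, adjusted p = 2.24e-12) and 3.33 (0.13, 4.77e-12). Adam8, best known from leukocytes, had 61, 81 and 68 reads in WT, 451, 597 and 362 in Atm-/- and 498, 683 and 533 in Sirt6-/-, for 2.60 (0.19, 1.87e-08) and 2.97 (0.17, 6.09e-10). The summed RPKM of the 7 listed leukocyte markers was 8.25 to 8.77 in WT, 6.23 to 6.68 in Atm-/- and 5.34 to 6.01 in Sirt6-/-. It came mostly from Lyz2, Cd68 and Csf1r. The part of leukocytes in the Adam8 level was not tested.

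Of the ADAMs without a catalytic site, Adam22 fell in Atm-/- from 246, 202 and 224 reads to 30, 66 and 30, a log2 fold change of -2.55 (standard error 0.26, adjusted p = 5.94e-07), and had 153, 119 and 137 reads and -0.77 (0.16, 0.000554) in Sirt6-/-. Adam11 had 13, 4 and 6 reads in WT, 35, 55 and 39 in Atm-/- and 34, 44 and 40 in Sirt6-/-. Its log2 fold changes were 2.33 and 2.29 (adjusted p = 0.000415 and 0.000378), and 2.93 in Atm-/- without WT replicate 1. Adam23 had 10, 14 and 22 reads in WT, 23, 17 and 14 in Atm-/- and 0, 2 and 2 in Sirt6-/-.

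**Figure D4:**
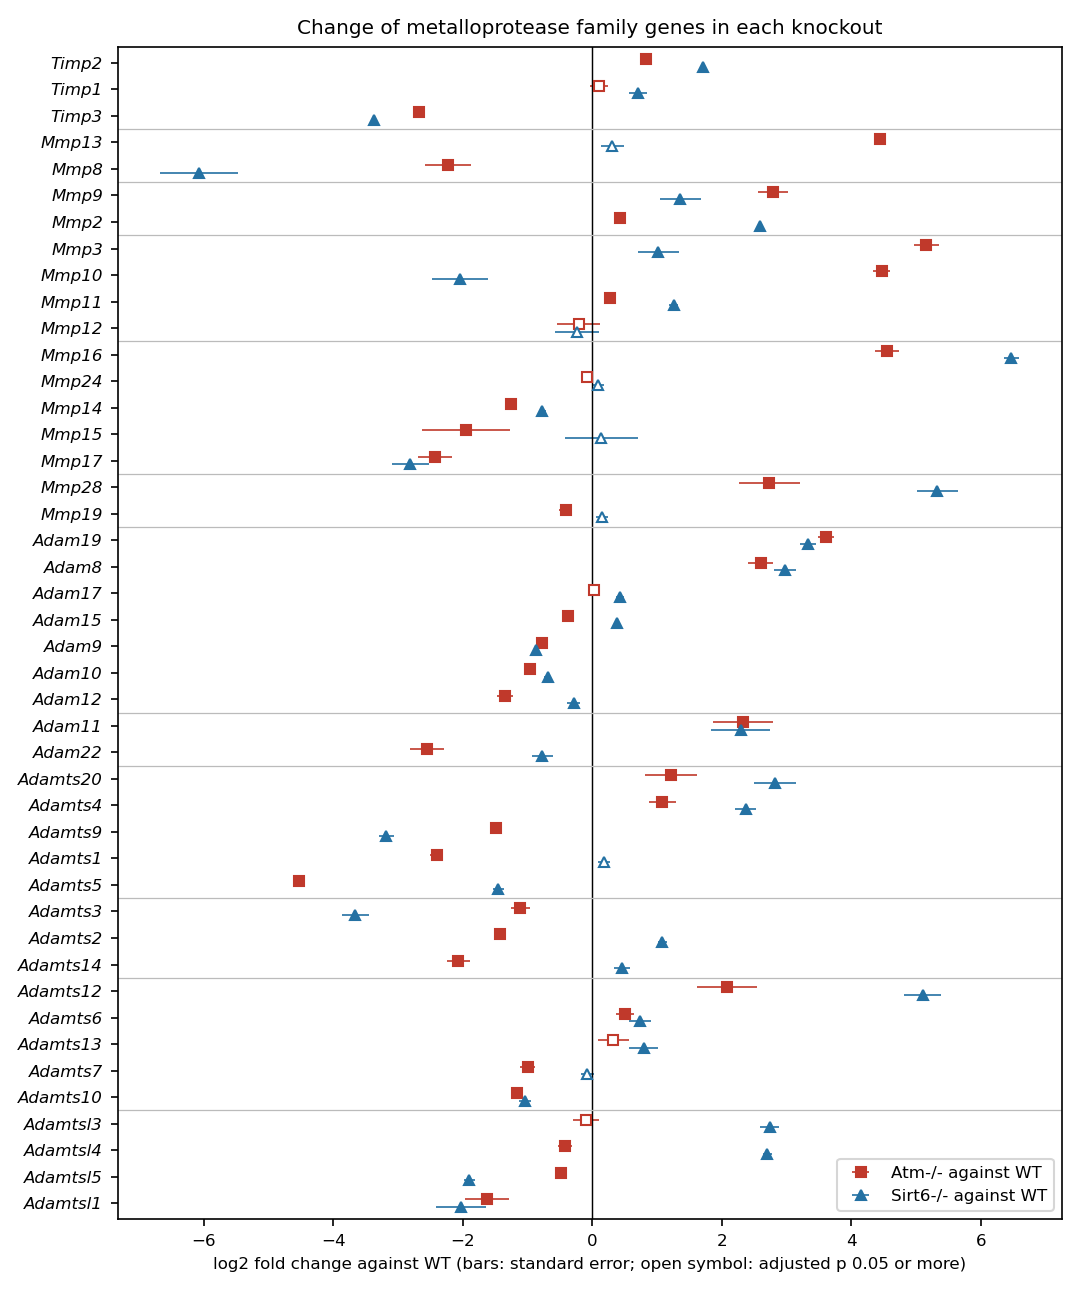
log2 fold change against WT (bars are standard errors) in Atm-/- (red squares) and Sirt6-/- (blue triangles) for members tested in both comparisons, leaving out genes with 3 or fewer reads in a genotype and the mostly testis-expressed ADAMs. Open symbols did not reach an adjusted p under 0.05, and grey lines separate the roles. Timp3, Mmp8, Mmp17, Adamts9 and Adamts5 lie left of 0 in both, Mmp16, Mmp28, Adam19 and Adam8 right of 0 in both, and Mmp10 at 4.47 and -2.04.

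The 2 knockouts were also compared with each other, without the WT samples. Of 50 members tested, 12 were higher in Atm-/- than in Sirt6-/-, beside 38.0% of all tested genes, and 26 were lower, beside 37.8%. In either direction 76.0% of the members and 75.8% of all genes differed. At 2-fold, 9 were higher, beside 11.3% of all genes, and 16 were lower, beside 14.2%, which together were 25 of the 50 members and 25.5% of all genes. The median log2 fold change was -0.42 over the members and 0.00 over all.

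On the side of Atm-/- stood the stromelysins and the collagenase, with log2 fold changes of 6.53 for Mmp10 (standard error 0.17, adjusted p = 2.03e-18, 92.7-fold), 4.15 for Mmp3 (0.11, 2.62e-18) and 4.15 for Mmp13 (0.09, 5.40e-20). Mmp8 (3.86), Adam23 (3.57), Adamts3 (2.56), Adamts9 (1.70), Mmp9 (1.44) and Adamtsl5 (1.43) were also higher there. On the side of Sirt6-/- stood Adamtsl4 (-3.11), Adamts5 (-3.06), Adamts12 (-3.01), Adamtsl3 (-2.83), Mmp28 (-2.58), Adamts1 (-2.57), Adamts14 (-2.52), Adamts2 (-2.49), Mmp2 (-2.16) and Mmp16 (-1.90). Timp3 was higher in Atm-/- by 0.72 (0.04, 1.21e-13), and Timp1 and Timp2 were lower, with log2 fold changes of -0.58 and -0.86.

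A list of 34 genes that activate, bind or traffic these enzymes was read in the same fits. In Atm-/- against WT, 24 were tested, 12 were higher and 8 lower, with a median log2 fold change of 0.28. In Sirt6-/- against WT, 23 were tested, 11 were higher and 7 lower, with a median of 0.34. The shares of all genes given above for these comparisons are the background. Reck, the gene of a membrane protein that inhibits several MMPs, had 195, 195 and 237 reads in WT, 32, 52 and 51 in Atm-/- and 649, 723 and 720 in Sirt6-/-. It was below WT in Atm-/- and above WT in Sirt6-/-, with log2 fold changes of -2.35 (standard error 0.22, adjusted p = 2.40e-07) and 1.68 (0.11, 4.26e-09). Lrp1, the receptor through which cells take up several MMPs, ADAMTS proteins and TIMPs, rose by 0.40 and 1.63.

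The proprotein convertase Pcsk6 had 190, 251 and 193 reads in WT, 1732, 2146 and 1747 in Atm-/- and 29, 18 and 14 in Sirt6-/-, for log2 fold changes of 3.01 (standard error 0.12, adjusted p = 1.38e-11) and -3.42 (0.27, 2.54e-08). Furin, which activates the membrane-type MMPs and the ADAMs, rose by 0.31 and 0.70, and Pcsk5, at 71 to 81 reads in WT, fell in both (-4.10 and -4.98). The Pcsk5 values were -4.70 in Atm-/- without Atm-/- replicate 1 and -9.25 in Sirt6-/- without Sirt6-/- replicate 2. Rhbdf1 and Rhbdf2 encode iRhom1 and iRhom2, partners with which ADAM17 leaves the endoplasmic reticulum. Rhbdf2 had 23, 22 and 20 reads in WT, 682, 722 and 558 in Atm-/- and 18, 22 and 3 in Sirt6-/-, a log2 fold change of 4.77 in Atm-/- (0.17, 5.22e-12). Rhbdf1 was far more abundant in WT, at 2760, 2771 and 3010 reads. It was slightly lower in both knockouts (-0.51 and -0.35). Of the tetraspanins that steer ADAM10, Tspan15 (2.32 and 3.23) and Tspan17 (4.94 and 5.95) rose in both knockouts, Tspan14 rose in Sirt6-/- (1.13) and Tspan5 fell in both (-1.03 and -1.02). The Tspan17 values were 5.71 and 6.71 without WT replicate 2, and 5.36 in Sirt6-/- without WT replicate 1.

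The plasminogen system, which activates proMMPs, moved less. Plaur, the urokinase receptor, rose in Atm-/- by 0.82, and Plau (urokinase) rose in Sirt6-/- by 0.97. The ADAMTS-like gene Thsd4 rose in Atm-/- by 4.95, from 9 to 26 reads in WT to 574 to 647. In Sirt6-/- Thsd4 had 20 to 28 reads and did not pass the test (0.40). The tolloid gene Tll1, whose product removes the other end of procollagen, rose from 0 to 6 reads in WT to 159 to 226 in Atm-/- and 117 to 221 in Sirt6-/- (5.95 and 5.99, or 7.26 and 7.28 without WT replicate 1), while the abundant Bmp1 of the same type fell slightly in both (-0.17 and -0.23). Tspan33 and the meprin gene Mep1a, both at 12 or fewer reads in WT, rose in Atm-/- (1.88 and 2.91, with 2.72 for Tspan33 without WT replicate 2), and Spock2, with 0, 0 and 6 reads in WT and 28, 53 and 50 in Sirt6-/-, rose there (4.31, or 8.43 without WT replicate 3).

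Of 12 genes of AP-1 and Ets factors, 8 were higher and 1 lower in Atm-/-, beside 34.7% and 33.6% of all tested genes, and 7 were higher and 3 lower in Sirt6-/-, beside 39.2% and 37.4%. Fosl1 (Fra-1) had 262, 330 and 219 reads in WT, 1941, 2206 and 2336 in Atm-/- and 859, 881 and 844 in Sirt6-/-. The groups were separate, with log2 fold changes of 2.86 (standard error 0.12, adjusted p = 4.54e-11) and 1.62 (0.13, 2.22e-08). Jun rose by 0.89 and 0.51, and Fos, with 161 to 319 reads over all samples, passed the test in neither. Fosb, at 33, 39 and 43 reads in WT, had 104, 105 and 92 in Atm-/-, a rise of 1.25. In Sirt6-/- Fosb had 44, 51 and 70 reads and did not pass the test (0.46). The Ets gene Etv1 had 10, 18 and 11 reads in WT, 614, 841 and 530 in Atm-/- and 284, 297 and 310 in Sirt6-/-, for 5.52 and 4.45. Etv4 had 2567, 2821 and 2636 reads in WT and 494, 493 and 474 in Sirt6-/-, a log2 fold change of -2.51 (0.07, 1.77e-13). In Atm-/- its value of 0.15 (adjusted p = 0.0416) lost its call without WT replicate 1 (0.11), WT replicate 3 (0.14), Atm-/- replicate 2 (0.14) or Atm-/- replicate 3 (0.13). The part of these factors in the levels of the Mmp genes was not tested.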

How the data were processed

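RNA-Seq of 9 MEF samples was used (3 WT, 3 Atm-/-, 3 Sirt6-/-, from the genotype labels). The authors deposited per gene the read count, not normalized, and the RPKM, which the files show to be the count divided by the listed length and by 1 read total per sample. Libraries were made from oligo(dT)-selected mRNA. The genome build named in the submitters' processing notes is mm10. The aligner, the counting tool and the use of strand are not given in the sources used here.

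Counts of all 24341 genes were fitted with edgeR 4.0.16 in R 4.3.3, for each pair of genotypes on its 6 samples (filterByExpr, TMM, glmQLFit, glmQLFTest, prior count 0.125). p-values were adjusted over all tested genes by the Benjamini-Hochberg method with a threshold of 0.05. Standard errors come from the F statistic. Levels between genes were compared as the authors' RPKM. Counting intervals of ratios with 1 to 3 reads in a group are exact 95% intervals, and a group at 0 was set to 3 reads. PCR duplicates are not marked, so these cover counting error only. The script was tested on simulated counts.

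Named genes were the Timps, the 10 members with the highest RPKM in WT, for each comparison up to 10 rises and 10 falls among members past the threshold with at least a 2-fold change, no overlap and 20 or more reads in the highest sample, and list genes past the same limits. Other members are named to complete a role or the chromosome 9 cluster. Members and lists were chosen with earlier results of these data known. Gene positions and overlaps come from GENCODE M21 and start-site windows from RefSeq on GRCm38.p6, the assembly that mm10 represents. All 84 members were matched by symbol, 53 to a window.

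The 3 samples of a genotype differed by more than counting noise and were counted as separate. The alternatives were DESeq2 size factors, library totals, no filter or at least 10 reads in every sample, a joint fit of the 9 samples, a block on the replicate number, the DESeq2 1.42.0 Wald test, edgeR's exact test, and each sample left out.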

Additional observations from a re-analysis of the deposited data

Results flagged for a closer look

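The following members were picked because Atm-/- and Sirt6-/- lay on opposite sides of WT, each past the threshold. That choice largely fixes the outcome of the direct comparison of the 2 knockouts (their 6 samples, edgeR's quasi-likelihood test), so the values are given as a description. Mmp10 differed by 6.53 on the log2 scale (standard error 0.17, adjusted p = 2.03e-18), with changes of 4.47 and -2.04 against WT in Atm-/- and Sirt6-/-. Adamtsl4 differed by -3.11 (0.07, 2.09e-19), with changes of -0.42 and 2.70. Adamts14 differed by -2.52 (0.15, 4.93e-12) and Adamts2 by -2.49 (0.07, 1.71e-17), both procollagen N-proteinase genes that were lower in Atm-/- and higher in Sirt6-/-. Adam15 differed by -0.74 (0.05, 2.01e-11), with changes of -0.38 and 0.38. The groups of 3 samples are too small to test for a single outlying sample.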

How the results depend on the processing

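Over all alternatives, 1462 of 1492 values of the named members kept their direction and their side of the threshold. With at least 10 reads in every sample fewer genes were tested, and the regulators higher in Atm-/- than WT fell from 12 to 7, those higher in Atm-/- than Sirt6-/- from 6 to 3, and the members at least 2-fold lower in Sirt6-/- than WT from 13 to 8. Library totals in place of TMM moved the median of all genes in Atm-/- against WT by 0.16 (log2), so that 6156 genes were higher and 3326 lower instead of 4611 and 4469, while the members went from 16 higher and 25 lower to 18 and 25. With library totals Adamtsl3 in Atm-/- against WT had 0.06 in place of -0.10, and Adam12 lost its call in Sirt6-/- (-0.20). Adam8 (-0.29) and Adam5 (-1.21) lost their calls between the knockouts. Calls as higher were gained by Adam17 (0.20) and Adam1a (0.81) in Atm-/- against WT. Adamts1 (0.27) and Mmp19 (0.24) gained them in Sirt6-/- against WT. With each sample left out, members higher in Atm-/- than WT numbered 14 to 17 and lower 24 to 25, and in Sirt6-/- against WT 22 to 24 and 18 to 19. Values that changed sign with a sample left out belonged to genes that did not pass the test, namely Adam23 in Atm-/- against WT (range -0.14 to 0.44), Adamtsl3 (-0.28 to 0.16) and Timp1 (-0.07 to 0.35) in the same comparison, Mmp15 (-0.30 to 0.61) and Hbegf (-0.42 to 0.05) in Sirt6-/- against WT, and Adam11 between the knockouts (-0.14 to 0.19). The replicate number as a block gave 16 and 25 members in Atm-/- and 23 and 18 in Sirt6-/-. Deviations of samples with the same number correlated by -0.0337 to 0.0379, and those with different numbers by -0.0341 to 0.0437. No shared effect of the numbers was thus seen. This cannot show whether samples of the same number were prepared together, which the labels do not say. At this depth a member with 0 reads could have up to 0.0932 CPM.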

Other observations

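Genes that these proteases act on were read from lists of substrates. Acan, the aggrecan gene, had 0, 2 and 3 reads in WT, 2146, 1706 and 2059 in Atm-/- and 54, 42 and 62 in Sirt6-/-, a log2 fold change of 9.97 in Atm-/- (edgeR, standard error 0.24, adjusted p = 9.60e-14) and 4.83 in Sirt6-/- (0.59, 2.89e-06). Without WT replicate 3 these were 10.65 and 5.49. Vcan, the versican gene, was abundant in all samples and rose by 0.40 and 0.39. Bcan and Ncan had fewer than 20 reads in every sample. Of 6 chondrocyte markers, Col9a1 and Matn1 had fewer than 20 reads, and the summed RPKM of the list was 2.50 to 2.68 in WT, 6.63 to 7.23 in Atm-/- and 53.2 to 62.8 in Sirt6-/-. Most of the Sirt6-/- sum was Col2a1, at 53.3 RPKM there (log2 fold change 9.33). Sox9 rose in both knockouts. With each sample left out, its log2 fold change was 2.15 to 2.24 in Atm-/- and 1.97 to 2.04 in Sirt6-/-. Matn3 fell in both (-1.09 and -3.01), and Col11a2 passed the test in neither (0.25 and 0.16). The part of these markers in the Acan level was not tested.

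Of 20 ligands and receptors that ADAMs release from the cell surface, 8 were higher and 7 lower in Atm-/-, and 7 were higher and 5 lower in Sirt6-/-. In either direction this was 78.9% of those tested in Atm-/-, beside 68.4% of all genes, and 66.7% in Sirt6-/-, beside 76.6%. Epiregulin (Ereg) had 139, 137 and 131 reads in WT, 3458, 3861 and 3710 in Atm-/- and 6479, 7897 and 5850 in Sirt6-/-, for log2 fold changes of 4.62 and 5.58. Hbegf had 795, 1298 and 722 reads in WT and 3487, 3530 and 3873 in Atm-/-, a rise of 1.81, and 798, 956 and 704 in Sirt6-/-, which overlapped WT. Tgfa nearly disappeared in Sirt6-/-, from 583, 601 and 539 reads to 6, 8 and 12 (-6.08), and was at -0.64 in Atm-/-. Cx3cl1, the gene of fractalkine, had 1184, 1169 and 1237 reads in WT and 14861, 15182 and 14731 in Sirt6-/-, a rise of 3.59. Notch1 rose in both knockouts (2.42 and 3.92) and Jag1 fell in both (-1.07 and -1.76). Btc, with 0 to 8 reads in WT, rose in both (5.17 and 4.70, or 5.80 and 5.31 without WT replicate 2), Areg rose in Atm-/- (3.22) and Notch3 in Sirt6-/- (1.91). Dll1 rose in Atm-/- (1.48) and fell in Sirt6-/- (-2.11), and Cdh2, the gene of N-cadherin, fell in both (-0.74 and -1.31).

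The other marker lists differed between the genotypes. The summed RPKM of 7 epithelial markers was 12.5 to 15.0 in WT, 29.9 to 33.2 in Atm-/- and 10.2 to 12.7 in Sirt6-/-, with Krt18 higher in Atm-/- (log2 fold change 1.96). That of 6 endothelial markers was 0.555 to 0.947, 1.89 to 2.43 and 0.161 to 0.228, mostly from Kdr in WT and Atm-/- (1.69 in Atm-/- and -3.89 in Sirt6-/-), the other 5 having fewer than 20 reads in every sample. Osteoblast markers summed to 11.1 to 13.9, 15.9 to 16.5 and 5.68 to 6.20, with Alpl at -6.35 in Sirt6-/-, and muscle markers to 7.29 to 8.76, 0.636 to 1.02 and 0.866 to 1.07, with Acta1 at -4.00 and -3.26. The part of other cell types in the members' levels was not tested.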
